A study of Mus musculus with 12 samples.

Results

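The genes described here encode Wnt ligands, their Frizzled receptors (Fzd) and 3 families of secreted modulators: the secreted Frizzled-related proteins (Sfrp), the Dickkopf proteins (Dkk) and the R-spondins (Rspo). Members were taken by name, as every gene whose symbol is Wnt, Fzd, Sfrp, Dkk or Rspo followed by a number and, for some Wnt genes, a letter. This gave 41 genes of the 55487 in the count table, namely 19 Wnt, 10 Fzd, 4 Sfrp, 4 Dkk and 4 Rspo genes.

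RNA was sequenced from C57BL/6 mice in 4 groups of 3 libraries, to compare cultured intestinal epithelium with the tissue it came from and the small intestine (SI) with the large intestine (LI). The groups labelled SIcrypt and LIcrypt are crypts taken straight from the animal, called SI and LI tissue here, with 3 mice in each. The groups labelled SI24h and LI24h are intestinal monolayers, a flat culture of crypt epithelium on Matrigel, grown for 24 h in control medium, with 3 pools of wells in each. The mice were young and of either sex, and age and sex are not given per library. For monolayers, the paper states that the large intestine was taken from the mice that gave the jejunum. Which libraries share mice is not given in the sources used here. All monolayers were seeded with the GSK3 inhibitor CHIR-99021, the BMP receptor inhibitor LDN-193189, Y-27632, EGF, R-spondin-1 and Wnt3a, and were then kept in medium with Wnt3a, EGF, Noggin and R-spondin-1. Recombinant Wnt3a and R-spondin-1 were therefore present in both monolayer groups and absent from both tissue groups, and their part in any difference between the 2 was not tested. SI crypts came from jejunum released with EDTA, and LI crypts were digested with collagenase D, dispase and DNase before EDTA, so region and isolation method cannot be told apart.

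In the Wnt pathway, Wnt proteins are lipid-modified ligands that bind a Frizzled receptor together with the coreceptor Lrp5 or Lrp6, which stops the breakdown of beta-catenin and lets it switch on target genes with TCF/LEF factors. Sfrp proteins bind Wnts outside the cell, Dkk1, Dkk2 and Dkk4 block Lrp5 and Lrp6, and R-spondins bind Lgr4, Lgr5 or Lgr6 and relieve Frizzled from the ubiquitin ligases Znrf3 and Rnf43. In the intestine this pathway is known for keeping crypt stem cells, with Paneth cells and the mesenchyme below the crypts as sources of Wnts and R-spondins.

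Total counts per library ranged from 59016196 to 76216530. Between 73.4% and 77.4% of the counts from 1 to 20 in a library were even numbers, where chance gives about 50%, so both mates of a read pair may have been counted, and halving the counts was tried as an alternative. Epithelial markers were high in all groups, with a summed level over 8 genes of 13780 to 36590 CPM (counts relative to the library total, which was scaled by the trimmed mean of M values, TMM). The summed immune markers were 480 to 589 CPM in SI tissue and 57.8 to 63.3 CPM in SI monolayers, and 66.8 to 78.7 CPM in LI tissue and 5.29 to 7.58 CPM in LI monolayers. Single genes made up most of the SI sums, Gzma in tissue (265 to 350 CPM) and Lyz2 in monolayers (38.6 to 43.8 CPM). Lyz2 was at 23.0 to 73.2 CPM in SI tissue. Of the 12 immune markers 10 fell in SI culture and none rose, where 16.4% of all tested genes fell. LI tissue replicate 1 stood apart within LI tissue in smooth muscle markers, with a sum of 76.9 CPM against 39.3 and 29.8 CPM in replicates 2 and 3. SI tissue had higher sums, 101 to 126 CPM, which were mostly Mylk (98.9 to 124 CPM). In LI tissue replicates 1 to 3, Mylk was at 32.0, 33.4 and 25.1 CPM. Of the 8 smooth muscle markers, Mylk was the only 1 higher in SI tissue than in LI tissue, and the other 7 were lower. Of all tested genes, 11.6% were higher and 11.1% lower. SI tissue replicates differed in Paneth cell markers, with sums of 5520, 10580 and 27400 CPM. Mitochondrial genes took 4.56% to 9.16% of counts in SI tissue, 2.25% to 2.59% in LI tissue and at most 0.750% in monolayers. In such bulk libraries, fewer cells of a type and less RNA per cell cannot be told apart.

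Of the 41 genes, 28 had enough counts to be tested: 12 Wnt genes, all 10 Fzd genes, and 2 each of the Sfrp, Dkk and Rspo genes. Among them 16 reached a mean of 1 CPM in at least 1 group (Wnt3, Wnt6, Wnt7a, Wnt7b, Wnt9a, Fzd1 to Fzd9, Sfrp5 and Dkk3) and the other 12 stayed below it in all groups (Wnt2b, Wnt4, Wnt5a, Wnt5b, Wnt8b, Wnt9b, Wnt11, Fzd10, Sfrp1, Dkk4, Rspo1 and Rspo4). The remaining 13 genes, 7 Wnt genes and 2 each of the Sfrp, Dkk and Rspo genes, were not tested and are listed with their counts at the end of the family.

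**Figure D1:**
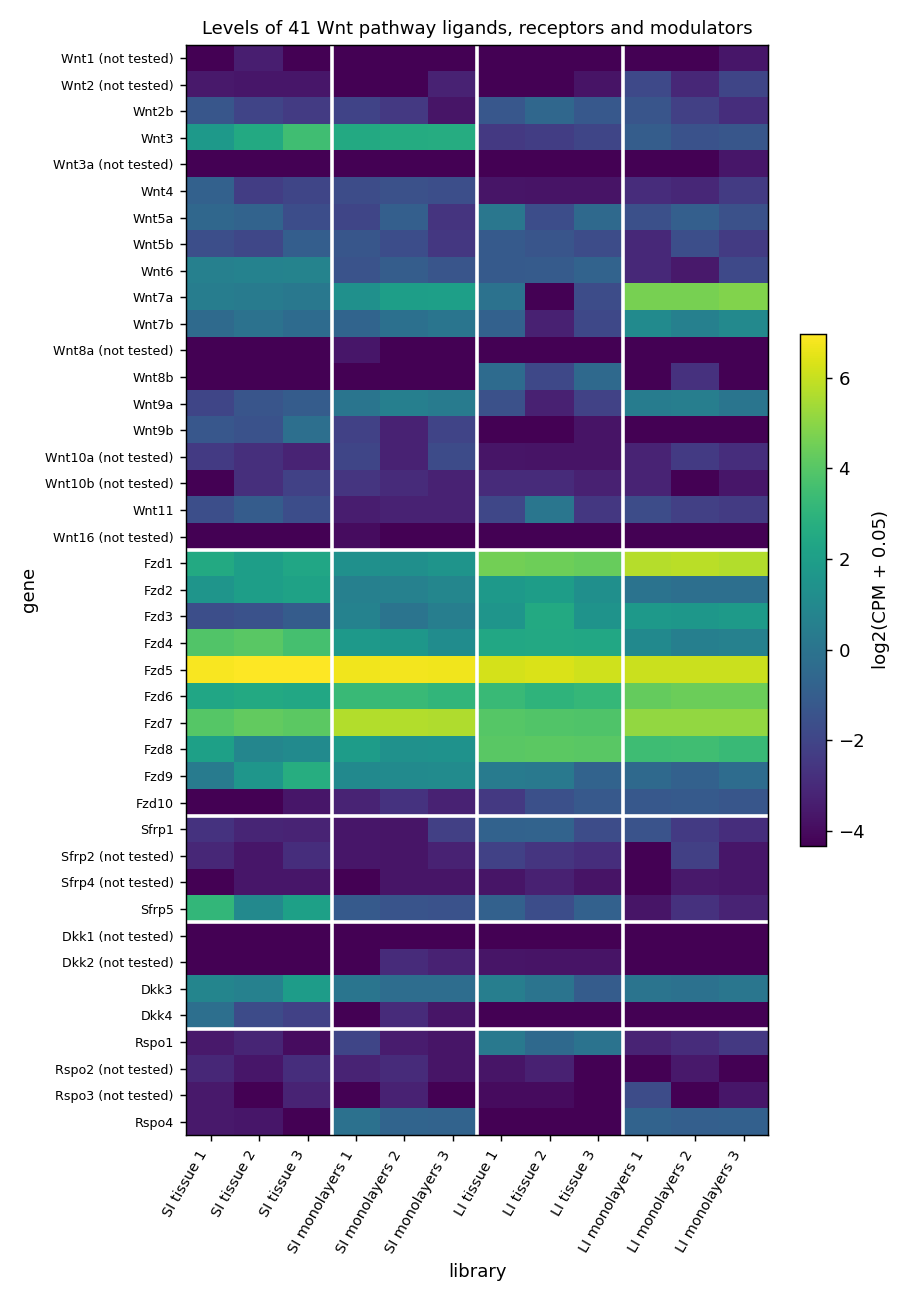
Heat map of all 41 genes (rows, by family) in the 12 libraries (columns, by group), coloured by log2(CPM + 0.05). Fzd5 is the brightest row in every library, Wnt7a is brightest in LI monolayers, Wnt3 is brighter in the 6 SI than in the 6 LI libraries, and Rspo4 is near the bottom of the scale in the 6 tissue libraries.

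A gene was called when its edgeR quasi-likelihood test, fitted on all 19581 tested genes, gave a Benjamini-Hochberg adjusted p under 0.05 and the level differed by a log2 fold change of 1 or more in either direction. In SI monolayers against SI tissue, 6 of the 28 members rose and 8 fell, against 26.1% of all tested genes called (9.71% higher and 16.4% lower). In LI monolayers against LI tissue, 8 rose and 6 fell, against 38% of all tested genes (14.5% higher and 23.5% lower). SI tissue against LI tissue had 11 members higher and 7 lower, against 22.7% of all tested genes (11.6% higher and 11.1% lower). SI monolayers against LI monolayers had 6 higher and 7 lower, against 21.2% (12.4% higher and 8.88% lower). The change with culture itself differed between the regions for 6 members, 2 higher and 4 lower in SI, or 21.4% of the 28, which is close to the 20% of all tested genes with such a call (11.4% higher and 8.51% lower). By the adjusted p alone, with no minimum fold, 17, 16, 21, 17 and 9 members passed in the 5 comparisons, against 59.6%, 68.7%, 53.9%, 51.8% and 46.3% of all tested genes. With SI tissue replicate 3 left out, the 5 counts were 11, 16, 17, 13 and 7 of 31 members tested. Of the 20253 genes then tested, 1920 rose and 3140 fell in SI culture, and 2902 and 4712 in LI culture. The numbers higher and lower were 2282 and 2205 between tissues, 2448 and 1780 between monolayers, and 2283 and 1678 for the interaction. With LI tissue replicate 1 left out, the members called were 14, 14, 19, 13 and 6 of 30. Of the 20200 genes then tested, 1918 rose and 3291 fell in SI culture, and 2935 and 4570 in LI culture. The numbers higher and lower were 2385 and 2116 between tissues, 2436 and 1754 between monolayers, and 2182 and 1815 for the interaction.

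The median log2 fold change of the 28 members was -0.18 in SI monolayers and -0.40 in LI monolayers against tissue, beside -0.05 for all tested genes in both. It was 0.47 between the tissues and -0.01 between the monolayers, beside 0.06 and 0.02 for all tested genes. Some members had no count in 1 of the groups compared. With those set to the smallest fold that a floor of 3 counts per library allows, and left out where neither group exceeded it, the 4 medians were -0.21, -0.40, 0.26 and -0.01. The libraries of the groups did not overlap for 17 members in the SI comparison with tissue (66.4% of all tested genes), 18 in that for LI (73%), 21 between the tissues (58.6%) and 19 between the monolayers (62.4%), so an absence of overlap was common over the whole transcriptome.

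The comparisons with tissue share no library between the regions, though they may share mice, and the calls can be set side by side. Fzd7, Rspo4, Wnt7a and Wnt9a rose in both regions, and Fzd2, Fzd4, Sfrp5 and Wnt6 fell in both. Fzd3 and Fzd10 rose, and Dkk3, Dkk4, Wnt9b and Wnt11 fell, with a call in SI alone. Fzd1, Fzd6, Wnt4 and Wnt7b rose, and Rspo1 and Wnt8b fell, with a call in LI alone. No member was called in opposite directions in the 2 regions, and 8 were called in neither. How often all tested genes had such joint calls was not counted, so these joint counts have no background beside them.

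**Figure D2:**
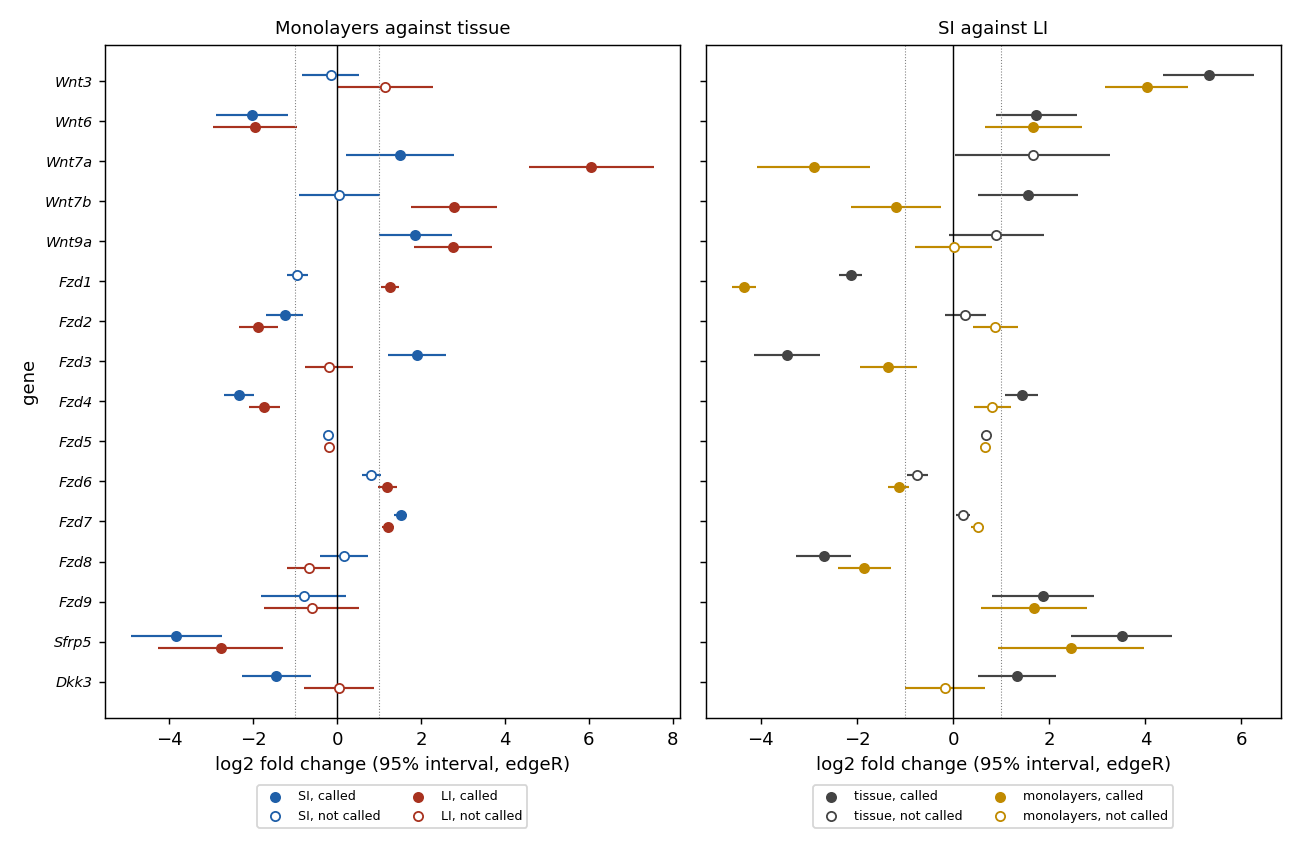
Log2 fold changes of the 16 genes with a group mean of at least 1 CPM, with 95% intervals from edgeR, for monolayers against tissue (left, SI in blue, LI in red) and SI against LI (right, tissue in grey, monolayers in yellow). Filled points were called, open points were not, and dotted lines mark a log2 fold change of 1 in each direction; Wnt7a in LI has the largest rise with culture (6.06) and Wnt3 the largest difference between regions (5.32 in tissue).

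Since 4 genes rose in both regions, the 250 bases before the RefSeq start of each (build GRCm38.p6, read 5′ to 3′ on the gene's strand) are printed with that of Fzd1, which rose in LI alone. Capitals mark matches, on either strand, to a TCF/LEF motif (TCAAAG), an AP-1 motif (TGANTCA) or a GC box (GGGCGG), and matches may overlap. The windows are chr6:91411354-91411603 (minus strand) for Wnt7a, chr11:59306680-59306929 (plus strand) for Wnt9a, chr2:151842677-151842926 (plus strand) for Rspo4, chr1:59481897-59482146 (plus strand) for Fzd7 and chr5:4758217-4758466 (minus strand) for Fzd1.
Wnt7a: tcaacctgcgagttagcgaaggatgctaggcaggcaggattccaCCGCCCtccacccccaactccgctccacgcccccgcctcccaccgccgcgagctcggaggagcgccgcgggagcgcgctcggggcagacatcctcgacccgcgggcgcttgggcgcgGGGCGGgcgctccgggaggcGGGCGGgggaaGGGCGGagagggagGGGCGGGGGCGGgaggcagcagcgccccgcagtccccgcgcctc
Wnt9a: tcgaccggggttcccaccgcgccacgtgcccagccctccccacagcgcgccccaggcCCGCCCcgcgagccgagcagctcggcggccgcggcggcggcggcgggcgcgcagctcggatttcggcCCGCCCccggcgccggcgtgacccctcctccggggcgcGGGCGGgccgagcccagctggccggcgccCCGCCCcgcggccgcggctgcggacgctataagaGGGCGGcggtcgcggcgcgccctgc
Rspo4: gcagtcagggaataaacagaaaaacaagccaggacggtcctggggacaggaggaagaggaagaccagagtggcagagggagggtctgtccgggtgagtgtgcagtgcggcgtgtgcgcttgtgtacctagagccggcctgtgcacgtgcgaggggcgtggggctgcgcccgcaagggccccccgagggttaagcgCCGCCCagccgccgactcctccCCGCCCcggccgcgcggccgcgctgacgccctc
Fzd7: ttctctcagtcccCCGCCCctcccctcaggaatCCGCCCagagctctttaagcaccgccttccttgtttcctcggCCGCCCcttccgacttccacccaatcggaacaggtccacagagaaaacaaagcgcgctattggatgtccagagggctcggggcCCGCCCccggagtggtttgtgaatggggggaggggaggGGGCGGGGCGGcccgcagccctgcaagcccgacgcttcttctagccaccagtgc
Fzd1: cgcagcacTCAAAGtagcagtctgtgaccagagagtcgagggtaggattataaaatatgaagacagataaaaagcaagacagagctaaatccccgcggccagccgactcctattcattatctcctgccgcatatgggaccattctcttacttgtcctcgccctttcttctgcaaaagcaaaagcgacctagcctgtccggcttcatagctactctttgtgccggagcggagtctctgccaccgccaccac

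The windows of Wnt7a, Wnt9a, Rspo4 and Fzd7 had 6, 5, 2 and 6 GC box matches and no match to the TCF/LEF or AP-1 motif. The window of Fzd1 had no GC box and 1 TCF/LEF match, 242 bases before the start. Fzd1 does not stand for the genes called higher in LI alone. Among them, the window of Wnt4 had 8 GC box matches, neither other motif and a GC content of 85.2%. No window was found for Fzd6 or Wnt7b. The RefSeq starts of Fzd7 and Fzd1 lie upstream of the gene bounds in GENCODE. GC content was 77.6% for Wnt7a, 84.4% for Wnt9a, 69.6% for Rspo4 and 65.2% for Fzd7, against 51.2% for Fzd1 and a median of 52.4% over all 32851 windows. Of the 4 genes that fell in both regions, 3 had a window, and all 3 held a GC box and neither other motif. A window was found for 27 of the 41 members: 20 held a GC box, 4 a TCF/LEF match and 1 an AP-1 match, while 32.7%, 13.8% and 6.75% of all windows held each.

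Among the ligands, Wnt7a changed most with culture. In LI monolayers it stood at 24.95, 25.1 and 28.3 CPM, and in LI tissue at 0.915, 0 and 0.261 CPM. In SI monolayers it stood at 2.51, 3.91 and 4.05 CPM, and in SI tissue at 1.33, 1.26 and 1.11 CPM. All 3 LI monolayer libraries were above the other 9, and the monolayers did not overlap their tissue in either region. The rise was a log2 fold change of 6.06 ± 0.65 (SE) in LI (edgeR adjusted p = 2.39e-05) and 1.5 ± 0.57 in SI (adjusted p = 0.0468), and it was smaller in SI by 4.56 ± 0.86 on the log2 scale (interaction adjusted p = 0.00218). SI monolayers were also below LI monolayers by 2.90 ± 0.52 (log2 fold change of -2.90, adjusted p = 0.00121). The SI call was near the threshold and was lost in 15 other settings, including the omission of any of the 6 SI libraries (1.42 to 1.73 with one left out). Without LI tissue replicate 1, which held most of the LI tissue counts, the LI value was 7.62 and the interaction -6.11, and without LI tissue replicate 2 the interaction was -3.97. Wnt7a lies at chr6:91363981-91411363 (GRCm38, minus strand).

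Wnt3, a ligand known from Paneth cells, was an SI gene in tissue and in culture. It stood at 3.37, 5.70 and 11.2 CPM in SI tissue and 5.77, 6.19 and 6.28 CPM in SI monolayers. In LI tissue it stood at 0.135, 0.159 and 0.209 CPM, and in LI monolayers at 0.449, 0.307 and 0.353 CPM. Every SI library was above every LI library. SI was higher by a log2 fold change of 5.32 ± 0.44 in tissue (edgeR adjusted p = 3.3e-07) and 4.03 ± 0.40 in monolayers (adjusted p = 2.14e-06). Culture gave no call for Wnt3: the log2 fold change was -0.15 ± 0.31 in SI (95% interval -0.84 to 0.53) and 1.14 ± 0.52 in LI (adjusted p = 0.0701), and the SI value was 0.42 without SI tissue replicate 3.

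The order of the SI tissue replicates in Wnt3 was that of the summed Paneth markers (9 of 10 matched a gene). Wnt6, Wnt9a, Fzd2, Fzd3, Fzd5 and Fzd9 had the same order, so it is not particular to Wnt3. In SI monolayers the Paneth sum was 8108 to 8794 CPM, and in LI tissue and LI monolayers 510 to 1069 and 575 to 603 CPM. The LI sums came mostly from single genes, Ang4 in tissue (410 to 901 CPM) and Nupr1 in monolayers (480 to 532 CPM). The part of the number of Paneth cells in the Wnt3 difference was not tested. Wnt9b, whose gene lies 24329 bases from Wnt3 on chromosome 11, was at 0.367, 0.308 and 0.820 CPM in SI tissue, 0.175, 0.054 and 0.195 CPM in SI monolayers, and at 2 counts in all over the 6 LI libraries. Its SI tissue count of 97 against 2 in LI tissue is a ratio of 57.7 (95% counting interval 15.5 to 483), and SI monolayers were at least 3.06-fold higher than LI monolayers. Wnt9b fell in SI culture by 1.81 on the log2 scale (SE 0.69, edgeR adjusted p = 0.0352), a call lost without SI tissue replicate 3 (-1.25) or any one SI monolayer library.

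Wnt6 fell with culture in both regions and was higher in SI in both states. Its levels were 1.47, 1.54 and 1.58 CPM in SI tissue and 0.321, 0.448 and 0.348 CPM in SI monolayers. In LI tissue they were 0.404, 0.424 and 0.548 CPM, and in LI monolayers 0.072, 0.034 and 0.235 CPM. SI tissue was above all other libraries, and the groups of a region did not overlap. The log2 fold change with culture was -2.03 ± 0.40 in SI (edgeR adjusted p = 0.000366) and -1.96 ± 0.47 in LI (adjusted p = 0.00147), the latter -3.11 without LI monolayer replicate 3. SI exceeded LI by 1.73 ± 0.39 in tissue (adjusted p = 0.00136) and 1.67 ± 0.48 in monolayers (adjusted p = 0.00768; 2.77 without LI monolayer replicate 3).

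Wnt7b, the nearest relative of Wnt7a, was the only member whose regional difference changed sign with a call on both sides. It stood at 0.699, 0.894 and 0.717 CPM in SI tissue and 0.569, 0.842 and 0.989 CPM in SI monolayers, against 0.511, 0.053 and 0.222 CPM in LI tissue and 2.04, 1.45 and 1.96 CPM in LI monolayers. LI monolayers were above the other 9 libraries and LI tissue below the SI libraries. SI was higher by a log2 fold change of 1.55 ± 0.49 in tissue (edgeR adjusted p = 0.0136; 2.47 without LI tissue replicate 1, and 1.48 with the call lost when only those 2 groups were fitted) and lower in monolayers (-1.18 ± 0.44, adjusted p = 0.0334). The monolayer difference was lost when SI monolayer replicate 1, 2 or 3 or LI monolayer replicate 1 or 3 was left out (-1.33 to -0.96). Wnt7b rose in LI culture by 2.79 ± 0.48 (adjusted p = 8.94e-05; 3.70 without LI tissue replicate 1) and was at 0.05 ± 0.45 in SI, a difference of -2.74 ± 0.65 (interaction adjusted p = 0.00291; -3.65 without LI tissue replicate 1). An opposite-strand gene, AU022754, covers 6.61% of its exonic bases.

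Wnt9a rose in both regions to a like level. It stood at 0.210, 0.339 and 0.439 CPM in SI tissue and 0.991, 1.40 and 1.25 CPM in SI monolayers, and at 0.296, 0.053 and 0.183 CPM in LI tissue and 1.28, 1.35 and 1.0 CPM in LI monolayers. Each monolayer library was above each tissue library. The log2 fold change was 1.87 ± 0.41 in SI (edgeR adjusted p = 0.00099) and 2.76 ± 0.44 in LI (adjusted p = 3.29e-05), and between the monolayers it was 0.01 ± 0.38 (95% interval -0.79 to 0.81). Its neighbour Wnt3a, 16176 bases away on chromosome 11, had 2 counts in 1 LI monolayer library and none in the other 11.

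The other 6 tested ligands stayed below 1 CPM on average. Wnt4 ranged from 0.026 CPM in LI tissue to 0.525 CPM in SI tissue, and was higher in SI tissue than in LI tissue by a log2 fold change of 3.38 ± 0.68 (edgeR adjusted p = 0.00049; 2.68 without SI tissue replicate 1). It also rose in LI culture (1.87 ± 0.73, adjusted p = 0.0325) and was higher in SI than LI monolayers (1.45 ± 0.57, adjusted p = 0.0456), calls that were lost in 7 and 12 other settings. In LI tissue each library held 2 Wnt4 counts.

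Wnt8b had 54, 17 and 52 counts in LI tissue, 6 counts in 1 LI monolayer library, and none in the other 8 libraries. LI tissue was at least 11.4-fold higher than SI tissue, and Wnt8b fell in LI culture, by 4.03 on the log2 scale (SE 1.04, edgeR adjusted p = 0.00503; -8.30 without LI monolayer replicate 2, the library with the 6 counts, a fit against 0 counts and so no bound). Wnt11 ranged from 0.264 to 0.432 CPM in SI tissue and 0.044 to 0.056 CPM in SI monolayers, a fall of 2.62 on the log2 scale (SE 0.76, adjusted p = 0.00714). In LI tissue Wnt11 stood at 0.215, 1.02 and 0.130 CPM, so replicate 2 held most of it. Wnt2b, Wnt5a and Wnt5b, of which Wnt5a is the best known ligand that acts without beta-catenin, were called in no comparison, at 0.028 to 0.623, 0.111 to 1.05 and 0.072 to 0.468 CPM.

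Per length, the Wnt levels were carried by few genes. Levels were set as TPM, which scales the counts per exonic base of each gene to the same total in every library. The summed TPM of the 19 Wnt genes was 9.79 ± 3.14 (SD, n = 3) in SI tissue and 11.8 ± 1.17 in SI monolayers, against 3.06 ± 0.752 in LI tissue and 28.8 ± 1.64 in LI monolayers. Wnt7a took 85.3% to 87.6% of that sum in LI monolayers and 21.5% to 29.1% in SI monolayers. Wnt3 took 36.5% to 64.8% in SI tissue and 45.9% to 51.0% in SI monolayers. In LI tissue no Wnt gene took more than 26.4% in any library, and the largest mean share was 19.3%, for Wnt6.

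**Figure D3:**
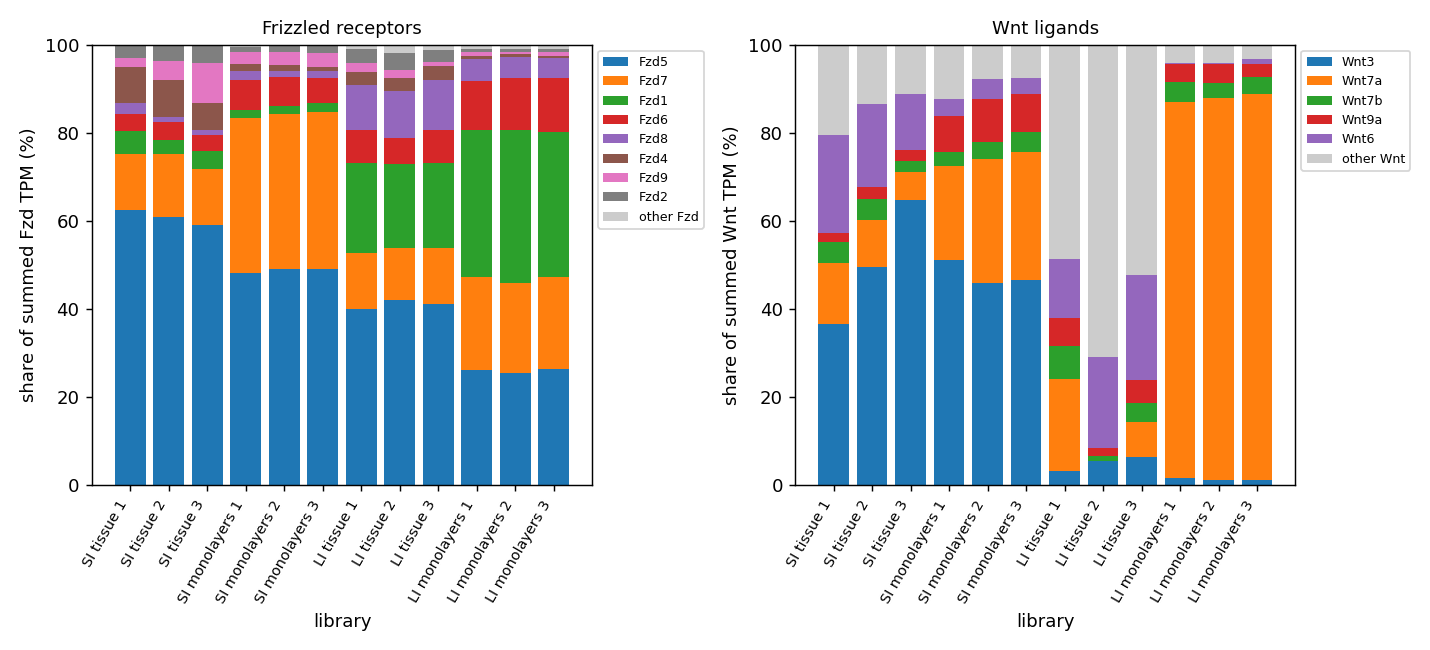
Stacked bars of each gene's share of the summed TPM of the Frizzled genes (left) and the Wnt genes (right), 1 bar per library in the 4 groups. Fzd5 has the largest share in SI tissue, SI monolayers and LI tissue and Fzd1 in LI monolayers, and Wnt7a fills over 85% of the Wnt bar in each LI monolayer library.

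The Frizzled receptors were measured at higher levels than the ligands, with a summed TPM of 69.1 ± 5.5 (SD, n = 3) in SI tissue and 89.0 ± 2.0 in SI monolayers, against 72.7 ± 5.79 in LI tissue and 113 ± 1.92 in LI monolayers. Fzd5, a receptor known from Paneth cell maturation, held 59.1% to 62.3% of that sum in SI tissue and 48.0% to 49.1% in SI monolayers, against 39.9% to 42.0% in LI tissue. In LI monolayers Fzd5 held 25.5% to 26.3%, and Fzd1 held more, 32.9% to 34.7%. Fzd7 held 11.8% to 14.3% in the tissue libraries, 35.1% to 35.5% in SI monolayers and 20.3% to 21.2% in LI monolayers.

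Fzd5 moved little with culture. Its levels were 117, 125 and 125 CPM in SI tissue and 104, 108 and 104 CPM in SI monolayers, and 75.8, 80.2 and 71.6 CPM in LI tissue and 66.7, 66.6 and 66.9 CPM in LI monolayers. The groups did not overlap, but the log2 fold changes with culture were -0.21 ± 0.05 in SI and -0.19 ± 0.05 in LI, and SI against LI gave 0.69 ± 0.05 in tissue and 0.66 ± 0.05 in monolayers, each with an adjusted p under 0.05 and below the fold minimum. The opposite-strand gene Gm38058 covers 17.8% of the exonic bases of Fzd5 (chr1:64730558-64737751, minus strand), and whether reads were counted by strand is not given in the sources used here.

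Fzd7, a receptor known for stem cell maintenance in the intestine, rose in both regions. It stood at 15.8, 19.2 and 17.4 CPM in SI tissue and 50.1, 50.3 and 49.4 CPM in SI monolayers, and at 15.8, 14.8 and 14.6 CPM in LI tissue and 35.5, 34.8 and 35.1 CPM in LI monolayers. The tissue groups overlapped each other and every monolayer library was above every tissue library. The log2 fold change was 1.51 ± 0.07 in SI (edgeR adjusted p = 3.05e-11) and 1.22 ± 0.07 in LI (adjusted p = 1.49e-10).

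Fzd1 was an LI receptor, and its change with culture differed between the regions. It stood at 20.2 to 23.5 CPM in LI tissue and at 51.5, 54.9 and 50.8 CPM in LI monolayers. In SI tissue it stood at 5.81, 4.01 and 5.15 CPM, and in SI monolayers at 2.49, 2.44 and 2.79 CPM. The 4 groups did not overlap. Fzd1 rose in LI by a log2 fold change of 1.26 ± 0.10 (edgeR adjusted p = 1e-08), and in SI the value was -0.95 ± 0.12, past the p threshold and short of the fold minimum. The difference between these changes was -2.21 ± 0.16 (interaction adjusted p = 1.41e-08). SI was below LI by a log2 fold change of -2.13 ± 0.11 in tissue (adjusted p = 1.31e-10) and -4.35 ± 0.12 in monolayers (adjusted p = 1.34e-13), which is 4.39-fold and 20.3-fold.

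Fzd6, which is known to act in planar cell polarity, was the other Frizzled called in LI culture alone. It stood at 5.04, 5.80 and 5.48 CPM in SI tissue and 10.1, 10.1 and 8.54 CPM in SI monolayers, against 10.05, 8.06 and 9.19 CPM in LI tissue and 19.8, 21.4 and 21.7 CPM in LI monolayers. LI monolayers were above all other libraries, and SI tissue was below them. The log2 fold change with culture was 1.2 ± 0.10 in LI (edgeR adjusted p = 2.4e-08) and 0.81 ± 0.11 in SI, and the difference of -0.39 between the changes was below the fold minimum. SI was below LI in monolayers (-1.13 ± 0.10, adjusted p = 1.29e-07) and at -0.74 ± 0.11 in tissue.

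Fzd2 and Fzd4 fell in both regions. Fzd4, the receptor for Norrin as well as for Wnts, stood at 15.1, 16.7 and 12.5 CPM in SI tissue and 3.38, 3.12 and 2.20 CPM in SI monolayers, and at 5.44, 5.54 and 5.48 CPM in LI tissue and 1.97, 1.42 and 1.53 CPM in LI monolayers. Its SI tissue libraries were the highest and its LI monolayer libraries the lowest. It fell by 2.34 on the log2 scale in SI (SE 0.17, edgeR adjusted p = 4.92e-09) and by 1.74 in LI (SE 0.17, adjusted p = 1.66e-07), and was higher in SI tissue than in LI tissue (1.43 ± 0.16, adjusted p = 1.29e-06).

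Fzd2 stood at 2.90, 3.95 and 4.45 CPM in SI tissue and 1.46, 1.51 and 1.78 CPM in SI monolayers, and at 3.26, 3.79 and 2.43 CPM in LI tissue and 0.927, 0.820 and 0.824 CPM in LI monolayers. The tissue groups overlapped each other, and both were above both monolayer groups. The log2 fold change was -1.25 ± 0.21 in SI (edgeR adjusted p = 7.46e-05) and -1.88 ± 0.22 in LI (adjusted p = 1.09e-06).

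Fzd3, Fzd8 and Fzd10 were higher in LI in tissue and in culture. Fzd3, another planar polarity receptor, stood at 0.280, 0.308 and 0.439 CPM in SI tissue and 1.57, 0.950 and 1.36 CPM in SI monolayers, and at 2.91, 5.72 and 2.71 CPM in LI tissue and 3.25, 3.11 and 3.53 CPM in LI monolayers. It rose in SI culture by a log2 fold change of 1.90 ± 0.33 (edgeR adjusted p = 0.000105) and was at -0.20 ± 0.27 in LI, a difference of 2.10 ± 0.42 (interaction adjusted p = 0.000714). The gap between SI and LI was -3.45 ± 0.32 in tissue (adjusted p = 1.69e-07) and -1.35 ± 0.28 in monolayers (adjusted p = 0.000713).

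Fzd8 stood at 16.8, 17.6 and 16.9 CPM in LI tissue and 10.003 to 11.1 CPM in LI monolayers, against 4.16, 1.79 and 2.05 CPM in SI tissue and 3.73, 2.58 and 2.62 CPM in SI monolayers. All LI libraries were above all SI libraries. SI was lower by 2.69 in tissue and 1.85 in monolayers (log2 fold changes of -2.69 ± 0.26 and -1.85 ± 0.25, edgeR adjusted p = 2.49e-06 and 5.78e-05), and no change with culture was called (0.17 ± 0.26 in SI, -0.67 ± 0.23 in LI). Fzd10 had 2 counts in SI tissue, 16 in SI monolayers and 10 to 30 per library in LI. The 62 counts of LI tissue against the 2 of SI tissue are a ratio of 26.1 (95% counting interval 6.92 to 220.0). The SI rise with culture is a ratio of 7.11 (1.67 to 63.8). Its call was lost with the counts halved, and without SI tissue replicate 1 or 2 or SI monolayer replicate 2. All counts of Fzd10 were even, and both intervals are too narrow if both mates of a pair were counted. In monolayers SI was lower (-2.32 ± 0.62, adjusted p = 0.00514).

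Fzd9 was higher in SI, at 1.26, 2.99 and 6.46 CPM in SI tissue and 1.98, 2.09 and 2.12 CPM in SI monolayers, against 1.24, 1.14 and 0.548 CPM in LI tissue and 0.667, 0.512 and 0.736 CPM in LI monolayers. The spread in SI tissue had the order of the summed Paneth markers, as for Wnt3, Wnt6, Wnt9a, Fzd2, Fzd3 and Fzd5. An order of 3 libraries can easily match by chance. SI exceeded LI by 1.88 ± 0.48 on the log2 scale in tissue (edgeR adjusted p = 0.00584; 1.13 without SI tissue replicate 3) and 1.69 ± 0.51 in monolayers (adjusted p = 0.0145). The tissue call was lost when only those 2 groups were fitted (1.81), and the monolayer call without LI monolayer replicate 2 (1.58) or without a filter on low counts (1.66).

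**Figure D4:**
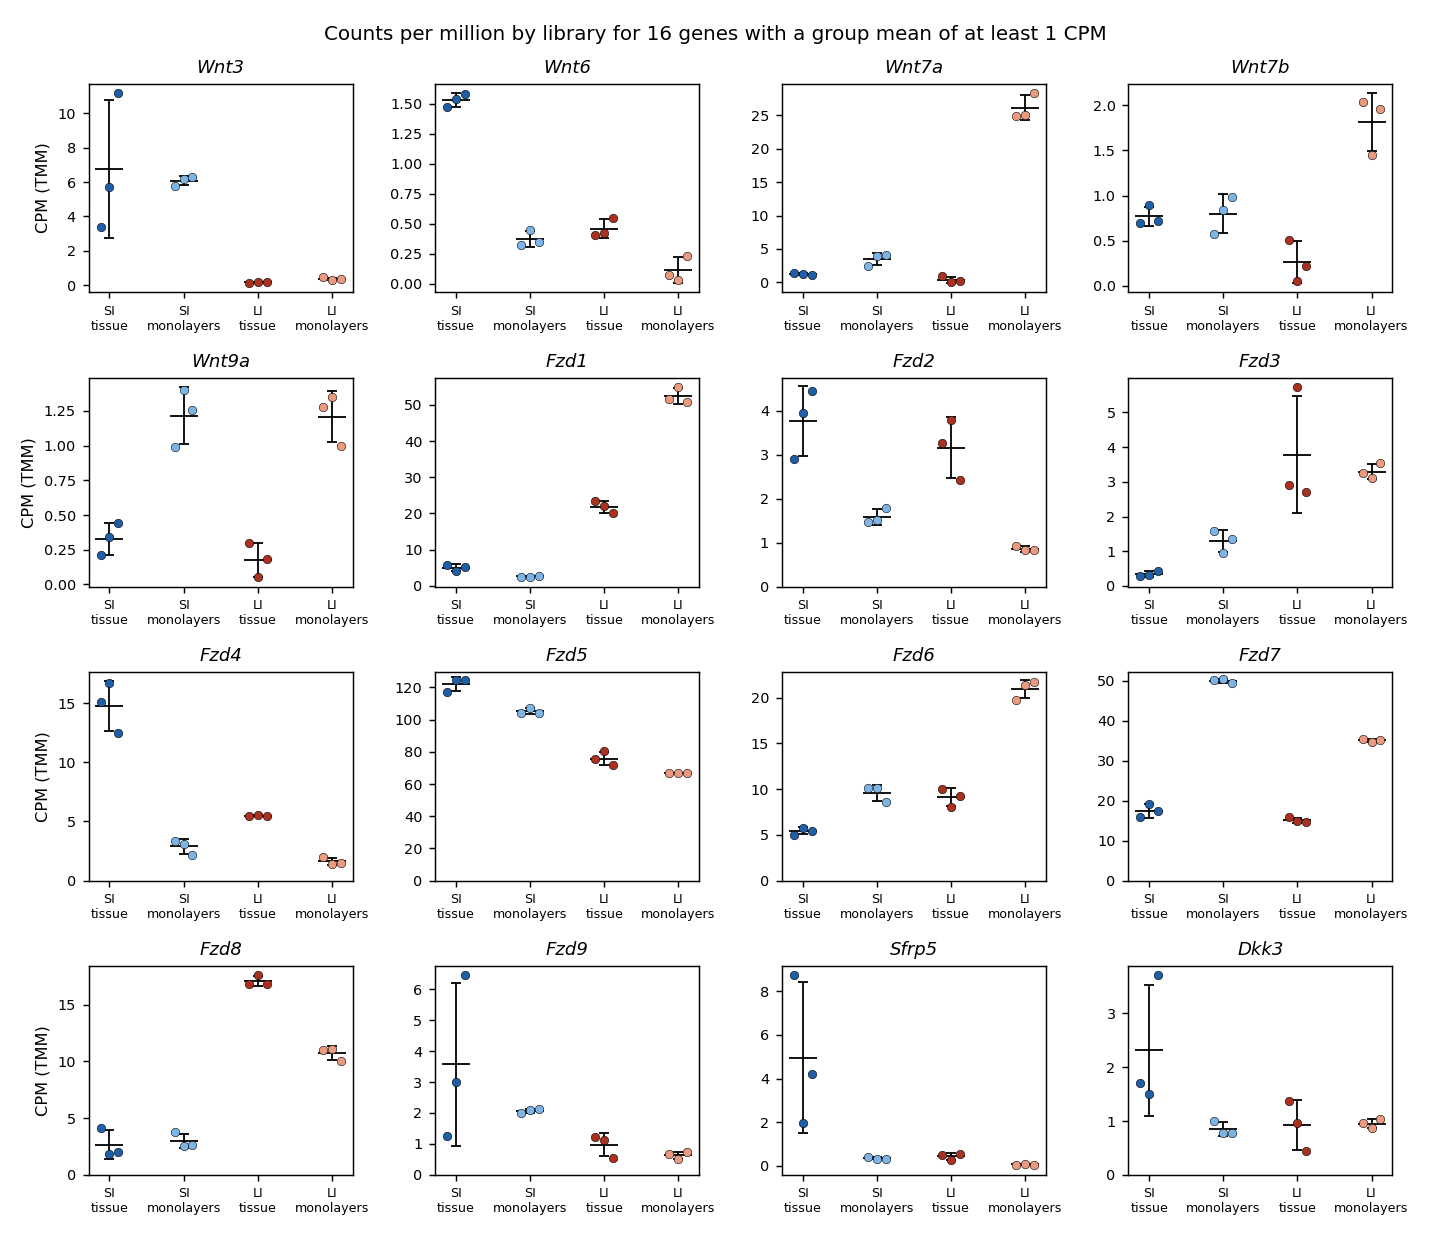
CPM (TMM-scaled, linear axis) in each library for the 16 genes with a group mean of at least 1 CPM, with the mean and SD of 3 libraries as a bar and whiskers. LI monolayers lie above all other groups for Wnt7a, Wnt7b, Fzd1 and Fzd6, and the SI tissue libraries spread widely for Wnt3, Fzd9, Sfrp5 and Dkk3.

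Of the R-spondins, Rspo4 rose in both cultures and Rspo1 fell in LI. Rspo4 had 2, 2 and 0 counts in SI tissue and none in LI tissue, against 60, 42 and 40 counts in SI monolayers and 38, 28 and 34 in LI monolayers. In CPM the monolayers stood at 0.875, 0.570 and 0.557 in SI and at 0.551, 0.478 and 0.500 in LI. All monolayer libraries lay above all tissue libraries, and the lowest SI monolayer was just above the highest LI monolayer. In SI the log2 fold change was 4.86 ± 0.66 (edgeR adjusted p = 1.82e-05; 4.27 without SI tissue replicate 3), and in LI monolayers Rspo4 was at least 12.8-fold higher than in LI tissue (adjusted p = 2.91e-06). The 4 counts in SI tissue against 0 in LI tissue also passed the test (adjusted p = 0.0431), at a level too low to give a fold, and that call was lost in 15 other settings.

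Rspo1 stood at 1.12, 0.676 and 0.926 CPM in LI tissue and 0.058, 0.085 and 0.132 CPM in LI monolayers. In SI it stood at 0.035, 0.062 and 0.015 CPM in tissue and 0.204, 0.041 and 0.028 CPM in monolayers, so LI tissue was above the other 9 libraries. It fell in LI culture by 3.27 on the log2 scale (SE 0.62, edgeR adjusted p = 0.000206), was lower in SI tissue than LI tissue (-4.55 ± 0.71, adjusted p = 4.46e-05), and changed differently in the 2 regions (4.52 ± 1.02, interaction adjusted p = 0.00172; 3.29 without SI monolayer replicate 1). Rspo2 and Rspo3, R-spondins known from mesenchyme, were not tested, with at most 6 and 18 counts in a library.

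The summed level of 12 mesenchymal markers was 40.5 to 53.5 CPM in LI tissue, 34.1 to 54.1 CPM in LI monolayers, 9.15 to 25.4 CPM in SI tissue and 9.30 to 19.2 CPM in SI monolayers. The defining markers Foxl1 and Gli1 were at or near 0, with at most 0.054 and 0.175 CPM in any library. Of 10 tested mesenchymal markers, 5 were lower in SI tissue than in LI tissue and none higher, where 11.1% of all tested genes were lower and 11.6% higher. Between the monolayers 9 were lower in SI and none higher, where 8.88% of all tested genes were lower and 12.4% higher. In SI culture 4 fell and none rose, where 16.4% of all tested genes fell and 9.71% rose. In LI culture the markers moved both ways, with 3 higher (Pdgfra, Lum and Grem1) and 2 lower (Pdgfrb and Dcn), where 14.5% of all tested genes rose and 23.5% fell. From LI tissue to LI monolayers, Dcn went from 9.51 to 11.8 CPM to 2.5 to 3.48 CPM and Pdgfrb from 4.80 to 5.38 CPM to 1.37 to 1.55 CPM. Pdgfra went the other way, from 0.130 to 0.689 CPM to 3.32 to 4.68 CPM, and Col1a1, a large share of the sum and not called, was at 6.62 to 10.7 and 8.36 to 24.5 CPM. The part of mesenchymal cells in the Rspo1 values was not tested.

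Among the Wnt inhibitors, Sfrp5 fell in both cultures. It stood at 8.73, 1.94 and 4.20 CPM in SI tissue and 0.408, 0.326 and 0.306 CPM in SI monolayers, and at 0.511, 0.265 and 0.522 CPM in LI tissue and 0.029, 0.102 and 0.059 CPM in LI monolayers. SI tissue was above the other 9 libraries, with its replicates far apart, and LI monolayers were below them. The log2 fold change was -3.83 ± 0.50 in SI (edgeR adjusted p = 1.46e-05; -3.14 without SI tissue replicate 1) and -2.77 ± 0.69 in LI (adjusted p = 0.00266). SI exceeded LI by 3.51 ± 0.48 in tissue (adjusted p = 3.19e-05; 2.83 without SI tissue replicate 1) and by 2.45 ± 0.71 in monolayers (adjusted p = 0.00993). Sfrp1 was lower in SI tissue, at 0.059 to 0.105 CPM against 0.261 to 0.557 CPM in LI tissue (-2.58 ± 0.71, adjusted p = 0.00572), and no change with culture was called.

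Dkk3, a Dickkopf relative whose part in Wnt signalling is unsettled, stood at 1.71, 1.51 and 3.72 CPM in SI tissue and 0.991, 0.774 and 0.780 CPM in SI monolayers, and at 1.37, 0.954 and 0.443 CPM in LI tissue and 0.956, 0.871 and 1.03 CPM in LI monolayers. It was highest in SI tissue, and the LI groups overlapped. It fell in SI culture by 1.45 on the log2 scale (SE 0.38, edgeR adjusted p = 0.00413), was higher in SI tissue than LI tissue (1.33 ± 0.38, adjusted p = 0.00786) and was at 0.05 ± 0.39 in LI culture. Without SI tissue replicate 3 the first value was -0.92 and the second 0.80, and neither call held. The interaction (-1.50 ± 0.55, adjusted p = 0.0352) was lost in 11 other settings, and was -0.97 without SI tissue replicate 3.

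Dkk4, an Lrp inhibitor and itself a known Wnt target, had 47, 16 and 12 counts in SI tissue, 0, 6 and 2 in SI monolayers and none in LI. SI tissue was at least 10.4-fold higher than LI tissue (edgeR adjusted p = 0.000985), and the fall in SI culture was 3.41 on the log2 scale (SE 0.98, adjusted p = 0.0101), a call lost without SI tissue replicate 1 (-2.46) and a value of -4.65 without SI monolayer replicate 2.

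The 13 genes that were not tested were close to absent at this depth. Dkk1 had no count in any library, which allows at most 0.0394 to 0.0508 CPM per library before TMM scaling, at 3 counts. Wnt16, Wnt3a and Wnt8a had 1, 2 and 2 counts in all. The highest count in a library was 3 for Wnt1, 4 for Sfrp4, 6 for Dkk2 and Rspo2, 12 for Wnt10b, 13 for Sfrp2, 16 for Wnt2 and 18 for Wnt10a and Rspo3. The highest counts of Rspo3 and of Wnt2 were both in LI monolayer replicate 1, which had no count for Sfrp2 or Rspo2.

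The genes around these ligands and receptors were counted in the same fit, from lists of pathway genes. Of 12 tested coreceptors and R-spondin receptors, 1 rose and none fell in SI culture (26.1% of all tested genes called), and 2 rose and 2 fell in LI culture (38%; 2 called without any one SI monolayer library or LI monolayer replicate 2 or 3). The median log2 fold change of this list was 0.29 in SI and 0.43 in LI. Ror2, a receptor for Wnt5a, rose in SI from 3.53 to 4.45 CPM in tissue to 10.6 to 11.1 CPM in monolayers (log2 fold change 1.47, edgeR adjusted p = 1e-08). In LI, Lrp5 (1.03) and the coreceptor Ptk7 (1.06) rose, and Lgr5, the R-spondin receptor that marks stem cells, and the Wnt5a receptor Ror1 each fell by 3.45 on the log2 scale. Lgr5 stood at 4.35, 4.35 and 3.86 CPM in LI tissue and 0.203, 0.478 and 0.471 CPM in LI monolayers, while SI tissue was at 7.69 to 11.8 and SI monolayers at 9.89 to 11.3 CPM. These changes differed for Lgr5 between the regions by 3.58 on the log2 scale (interaction adjusted p = 9.18e-08).

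Between the regions, 1 of the 12 was higher and 2 were lower in SI tissue, and 2 were higher and 2 lower in SI monolayers. Of all tested genes, 22.7% were called between the tissues and 21.2% between the monolayers. Lgr5 was higher in SI in both (1.23 in tissue, 4.81 in monolayers), and Ror1 was lower in both (-7.23 and -2.28). Kremen2, a Dkk coreceptor, was lower in SI tissue (-1.34), and in monolayers Rnf43 was higher (1.21) and Ptk7 lower (-1.07) in SI. Lgr4, the other R-spondin receptor of the crypt, was at 114 to 184 CPM in all 12 libraries and called in no comparison.

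Of 9 tested genes for Wnt secretion and other secreted modulators, 1 rose and none fell in SI culture, and 2 rose and 3 fell in LI culture, beside the 26.1% and 38% of all tested genes called. The SI count was 3 without SI tissue replicate 2, and 2 without SI tissue replicate 3 or LI monolayer replicate 1. Apcdd1, a Wnt inhibitor and target, rose in both (1.83 in SI, 3.23 in LI). Porcn, the enzyme that puts the lipid on Wnt proteins, fell in LI (-1.64), from 2.26 to 2.66 CPM to 0.736 to 0.888 CPM, as did Dkkl1 (-1.68), and Wif1 (-1.66) and Frzb (2.36), both under 1 CPM and named after their values were seen, were also called in LI. Wls, the carrier that brings Wnts to the cell surface, was called in neither culture and was lower in SI than LI, at 26.4 to 34.6 against 125 to 144 CPM in tissue (-2.11) and 37.4 to 40.2 against 108 to 118 CPM in monolayers (-1.56). In all, 1 of this list was higher and 5 lower in SI tissue than in LI tissue, and 2 were higher and 5 lower in SI monolayers, where 22.7% and 21.2% of all tested genes were called.

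Of 17 tested cytoplasmic and nuclear pathway genes, 1 was called in SI culture and 2 in LI culture, with medians of 0.15 and 0.59, against 26.1% and 38% of all tested genes called. The SI count was 2 without SI tissue replicate 1 or LI tissue replicate 1 and 0 without SI tissue replicate 3, and the LI count was 1 without LI monolayer replicate 1. The repressor Tcf7l1 fell in LI (-2.77), from 21.9 to 29.9 CPM to 2.88 to 4.25 CPM, and in SI, where it stood under 1 CPM and was named after its values were seen (-1.27). The scaffold Axin1 rose in LI by 1.0 on the log2 scale. Tcf7l1 was lower in SI in tissue (-5.97) and in monolayers (-4.47), Apc2 was higher in SI tissue (1.38), and Tcf7 was higher in SI monolayers (1.42). Of the 17, 2 were called between tissues and 2 between monolayers, against 22.7% and 21.2% of all tested genes. The tissue count of 2 was 1 without SI tissue replicate 2 or LI tissue replicate 2 or 3.

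Target genes of Wnt/beta-catenin signalling split in culture. Of 18 tested, 4 rose and 2 fell in SI (medians of 0.37 against -0.05 for all tested genes), and 4 rose and 6 fell in LI (-0.72 against -0.05). Of all tested genes, 9.71% rose and 16.4% fell in SI, and 14.5% rose and 23.5% fell in LI. Cd44, Myc, Apcdd1 and the cyclin Ccnd1 rose in both regions, by 2.05, 2.02, 1.83 and 1.27 in SI and 2.49, 3.15, 3.23 and 1.93 in LI. Axin2, the negative feedback gene read most often as a Wnt target, fell in both, from 58.8 to 70.5 CPM to 27.7 to 29.5 CPM in SI (log2 fold change -1.18, edgeR adjusted p = 5.89e-07) and from 28.9 to 33.1 CPM to 1.28 to 2.25 CPM in LI (-4.15, adjusted p = 3.92e-12). In SI, Sp5 also fell (-1.64). In LI, the stem cell factor Ascl2 (-6.19), Tnfrsf19 (-3.58), Lgr5 (-3.45), Cdx1 (-2.40) and Tiam1 (-1.22) fell too.

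**Figure D5:**
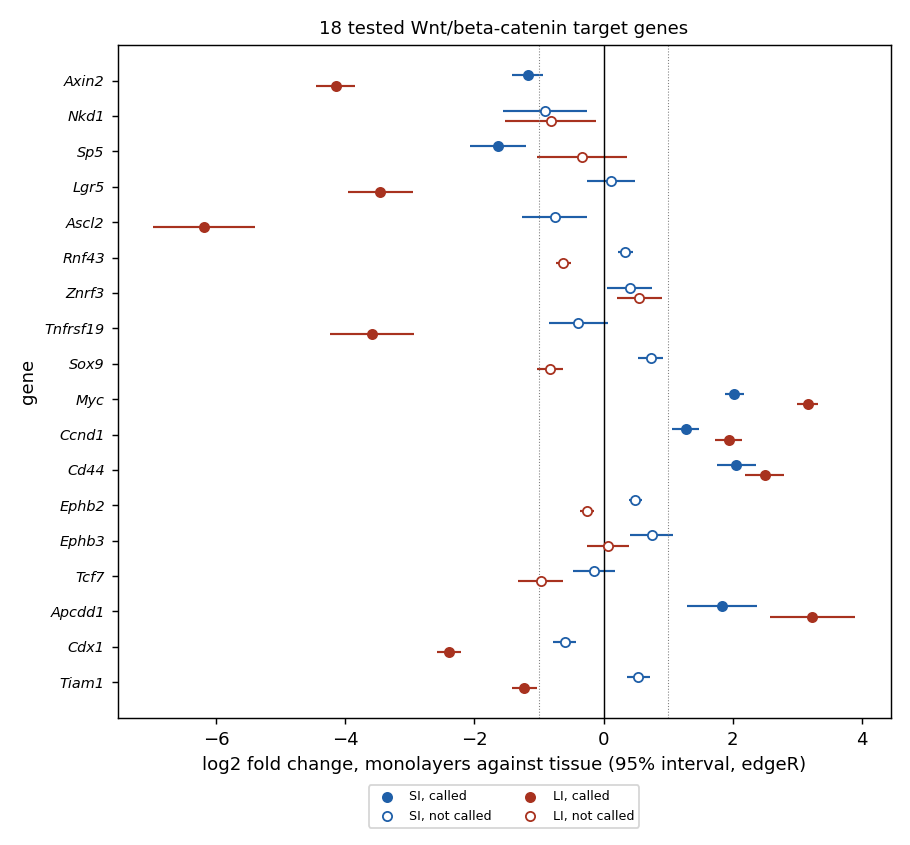
Log2 fold changes of monolayers against tissue with 95% intervals from edgeR for the 18 tested target genes, SI in blue and LI in red. Filled points were called and open points were not. Cd44, Myc, Ccnd1 and Apcdd1 lie to the right in both regions, and Ascl2, Axin2, Tnfrsf19 and Lgr5 lie further to the left in LI than in SI.

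Between the regions, 6 target genes were higher and 2 lower in SI tissue than in LI tissue, and 11 were higher and none lower in SI monolayers than in LI monolayers, with medians of 0.34 and 1.30 against 0.06 and 0.02 for all tested genes. Of all tested genes, 11.6% were higher and 11.1% lower in SI tissue, and 12.4% higher and 8.88% lower in SI monolayers. The largest monolayer differences were Ascl2 (5.71), Lgr5 (4.81) and Tnfrsf19 (4.63). In tissue Sp5 (5.31), Apcdd1 (2.90) and Nkd1 (1.47) led, and Ephb3 (-1.2) and Cdx1 (-1.08) were lower. The change with culture differed between the regions for 10 of the 18, 7 higher and 3 lower in SI, against 20% of all tested genes. The list also holds crypt stem cell genes: the summed level of 12 stem markers, of which Lgr5, Ascl2, Axin2, Tnfrsf19 and Sox9 are in both lists, was 1673 to 2144 CPM in SI tissue and 526 to 556 CPM in SI monolayers, against 1196 to 1253 CPM in LI tissue and 546 to 574 CPM in LI monolayers. Single genes made up most of these falls: Olfm4 was at 1063 to 1420 CPM in SI tissue and 17.4 to 20.1 CPM in SI monolayers, and Aqp4 at 564 to 630 CPM in LI tissue and 1.71 to 2.15 CPM in LI monolayers. The LI monolayer sum was mostly Slc12a2 (305 to 325 CPM) and Cdk6 (147 to 156 CPM). Of the 12 stem markers, 8 were higher and 1 lower in SI monolayers than in LI monolayers. In SI culture 1 rose and 3 fell, beside 9.71% and 16.4% of all tested genes. In LI culture 1 rose and 8 fell, beside 14.5% and 23.5%. The part of stem cell number in the target gene differences was not tested.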

How the data were processed

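RNA was sequenced from 12 libraries, 3 in each of SI tissue, LI tissue, SI monolayers and LI monolayers. Per the labels and the study's methods, the authors aligned paired reads with STAR 2.7.9a to GRCm38 and made the deposited gene counts with featureCounts 2.0.2. How mates and strands were counted is not given in the sources used here. A deposited table of counts normalized with DESeq2 was not used. Counting intervals and the floor of 3 counts cover counting error only. They take each count as a separate read pair, so the intervals are too narrow if both mates were counted.

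Counts were fitted with edgeR 4.0.16 in R 4.3.3 (TMM scaling, filterByExpr by group, quasi-likelihood test, 1 model over the 4 groups), with p-values adjusted over 19581 genes. Intervals are 95%. SE is the absolute log2 fold change divided by the square root of the F statistic. Names and exonic lengths came from GENCODE vM21, which named 55141 of 55487 genes, and promoter windows from RefSeq. Genes with a group mean of at least 1 CPM were given library by library and other tested genes by range. The members and gene lists were chosen with earlier results of these data known. The tissue libraries are 3 mice and the monolayers 3 pools of wells per group, and where pools share mice, p-values measure only the spread between pools. The fit was tested on simulated data. Alternatives were DESeq2 1.42.0, other scalings and filters, halved counts, a replicate block, the 2 compared groups alone, no minimum fold and each library left out.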

Additional observations from a re-analysis of the deposited data

Results flagged for a closer look

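For 6 of the ligands, receptors and modulators, the change with culture differed between SI and LI by edgeR's interaction test (SI change minus LI change, log2 scale): Wnt7a (-4.56), Wnt7b (-2.74), Fzd1 (-2.21), Dkk3 (-1.50), Fzd3 (2.10) and Rspo1 (4.52). These were 21.4% of the 28 tested members, close to the 20% of all tested genes with such a call. Wnt7a rose in both regions, and more in LI. Wnt7b and Fzd1 rose in LI. In SI, Wnt7b was at 0.05, and Fzd1 was at -0.95, past the p threshold and short of the fold minimum. Fzd3 rose in SI and was at -0.20 in LI. The value of Dkk3 was -0.97 without SI tissue replicate 3 and that of Wnt7a -6.11 without LI tissue replicate 1.

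The same test was passed by genes around them. Among coreceptors and R-spondin receptors these were Lgr5 (3.58), Ror1 (4.95), Ror2 (1.17), Kremen2 (1.02) and Lrp5 (-1.0). Among secretion and modulator genes they were Porcn (1.39), Frzb (-4.05) and Apcdd1 (-1.40), and among cytoplasmic and nuclear genes Tcf7l1 (1.51), Dvl1 (-1.02) and Apc2 (-1.74). The other target genes were Ascl2 (5.43), Tnfrsf19 (3.19), Axin2 (2.97), Cdx1 (1.79), Tiam1 (1.76), Sox9 (1.56), Sp5 (-1.30) and Myc (-1.13). By list, 5 of 12 tested coreceptors and R-spondin receptors passed, and 3 of 9 secretion and modulator genes. In the other lists, 3 of 17 cytoplasmic and nuclear genes and 10 of 18 target genes passed, where 20% of all tested genes did. Groups of 3 libraries were too small to look for single outlying libraries.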

How the results depend on the processing

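Of 65 called results on single members, 49 kept direction and call in every alternative that tested them and 16 lost the call in at least 1. The number of members called stayed within 1.5 times except where at least 10 counts were required in every library. That left only 11 members tested (a fit of only 2 groups has no interaction) and 6 called in SI culture, 5 in LI culture, 7 between tissues, 6 between monolayers and 3 in the interaction. Of the 14385 genes kept by that filter, 1279 rose and 1861 fell in SI culture, and 1966 rose and 2831 fell in LI culture. In SI, 1222 were higher and 1384 lower between tissues, and 1336 higher and 1106 lower between monolayers. The interaction was higher for 1593 and lower for 1229. Leaving out 1 library gave 11 to 14, 13 to 16, 16 to 19, 11 to 14 and 5 to 8, with 30 or 31 members tested. These fits tested 20195 to 20346 genes in all. In SI culture 1869 to 1992 of them rose and 2956 to 3296 fell, and in LI culture 2491 to 2935 and 4473 to 4995. In SI, 2108 to 2385 were higher and 2116 to 2442 lower between tissues, and 2384 to 2453 and 1610 to 1785 between monolayers. The interaction was higher for 2147 to 2476 and lower for 1282 to 1815. With no minimum fold, the called target genes were 15, 16, 15 and 17 of 18 in the first 4 comparisons. Of all tested genes, 59.6%, 68.7%, 53.9% and 51.8% were called so.

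Signs that changed were all of values without a call. Dkk3 in LI culture (0.05) was -0.080 with upper quartile scaling, -0.036 with the 10-count filter and -0.29 to 0.45 with 1 library left out. Wnt9a between monolayers (0.01) was -0.020 with DESeq2, -0.021 with its size factors in edgeR, -0.018 without a filter and -0.076 to 0.17 with 1 library left out. The other ranges with 1 library left out were -0.39 to 0.23 for Fzd3 in LI culture, and in SI culture -0.050 to 0.63 for Fzd8, -0.47 to 0.42 for Wnt3 and -0.088 to 0.28 for Wnt7b.

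Libraries of the same replicate number did not deviate together (correlations of -0.0516 to 0.0563), and the main fit did not pair them. Such correlations cannot show whether libraries share mice. With a replicate block 13, 16, 17, 12 and 5 members were called. Of all 19581 tested genes, 1868 rose and 3149 fell in SI culture with the block, and 2815 and 4552 in LI culture. The numbers higher and lower were 2220 and 2163 between tissues, 2377 and 1706 between monolayers, and 2196 and 1611 for the interaction. The block lost Wnt7a in SI culture, Wnt7b and Wnt4 between monolayers, Rspo4 between tissues and the Dkk3 interaction, and it added Wnt3 and Wnt2b in LI culture and Wnt11 between monolayers. Both calls of Wnt8b were lost with DESeq2. Low counts limit Dkk4, Fzd10, Rspo4, Wnt4, Wnt8b and Wnt9b, whose values rest on few reads. The cause of each change was not tested.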
